A study of Mus musculus with 18 samples.

Results

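A set of 10 genes used as markers of intestinal stem cells were followed across 4 genotypes of mouse small-intestinal crypts: Lgr5, Ascl2, Olfm4, Smoc2, Rnf43, Prom1, Tnfrsf19, Hopx, Lrig1 and Bmi1. They were chosen by gene symbol, with earlier results of these data known. All 10 were on the array, and they are 10 of the 18193 genes tested. Biotin-labelled total RNA of crypts from mice 2 months old was read on 18 arrays, each with 45101 probe sets. The groups were E2f/Myc quadruple knockout (QKO, n = 5), labelled as lacking Myc together with E2f1, E2f2 and E2f3, Myc knockout (Myc KO, n = 4), E2f triple knockout (E2f TKO, n = 5), labelled as lacking E2f1 to E2f3, and control (n = 4). Ah-cre, in which the Cyp1a1 promoter drives the recombinase and aryl hydrocarbon receptor ligands turn it on, was used for the deletions, and crypts were collected 2 days later. The labels do not say whether control mice carried Ah-cre or were given the inducer, nor whether each array is a separate animal, so p-values measure only the spread between these samples.

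The crypt is the pit at the base of the villi in which the cells of the intestinal lining are made. Crypt base columnar cells, which divide often and sit between Paneth cells, carry the R-spondin receptor Lgr5 and are kept as stem cells by Wnt signalling. A second set of markers, among them Hopx, Lrig1 and Bmi1, was first described for slowly cycling cells above the Paneth cells, although their RNAs are also found in Lgr5-positive cells. The proteins of E2f1 to E2f3 control genes of DNA replication and cell division, and Myc drives cell growth and binds E-box sequences.

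Upstream sequence was held for 8 of the 10 genes in RefSeq's start sites on GRCm38.p6, and Lgr5 and Smoc2 were without an entry. The 250 bases before each start were searched on both strands for the Myc E-box CACGTG, for the E2F motifs TTTCCCGC and TTTGGCGC, and for the TCF motif CTTTGA, none of which overlap one another in these windows. The windows of Tnfrsf19, Hopx and Bmi1 are shown because they hold every match found among the 12 windows of the 8 genes. Each reads 5′ to 3′ towards the start site, with the matched bases in capitals.
Tnfrsf19, second start, chr14:61037988-61038237, minus strand: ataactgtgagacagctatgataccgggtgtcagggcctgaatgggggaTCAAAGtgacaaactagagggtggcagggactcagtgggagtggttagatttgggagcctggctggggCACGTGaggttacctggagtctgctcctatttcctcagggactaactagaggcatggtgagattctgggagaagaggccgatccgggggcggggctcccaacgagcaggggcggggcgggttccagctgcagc
Hopx, first start, chr5:77115124-77115373, minus strand: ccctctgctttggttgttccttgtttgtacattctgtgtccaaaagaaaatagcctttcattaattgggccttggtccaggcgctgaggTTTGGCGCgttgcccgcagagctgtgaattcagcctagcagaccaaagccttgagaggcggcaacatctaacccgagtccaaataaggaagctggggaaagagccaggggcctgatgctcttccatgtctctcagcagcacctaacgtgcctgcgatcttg
Hopx, second start, chr5:77095268-77095517, minus strand: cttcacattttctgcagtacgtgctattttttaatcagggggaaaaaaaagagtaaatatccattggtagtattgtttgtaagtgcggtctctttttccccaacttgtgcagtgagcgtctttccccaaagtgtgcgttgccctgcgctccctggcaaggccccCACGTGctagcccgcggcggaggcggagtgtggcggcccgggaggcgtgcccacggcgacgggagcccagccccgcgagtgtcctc
Bmi1, chr2:18676768-18677017, plus strand: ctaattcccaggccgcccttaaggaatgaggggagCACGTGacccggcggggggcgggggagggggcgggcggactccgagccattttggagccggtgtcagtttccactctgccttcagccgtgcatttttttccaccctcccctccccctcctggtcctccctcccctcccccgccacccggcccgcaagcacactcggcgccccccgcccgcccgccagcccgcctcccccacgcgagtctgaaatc
The E-box begins 133 bases before the second start of Tnfrsf19, 86 before the second start of Hopx and 215 before the start of Bmi1. It was found in 3 of the 12 windows and in 6.02% of all 32851 windows of the same length. An E2F motif stands 161 bases before the first start of Hopx, the 1 match among the 12 windows, and such motifs were found in 1.3% of all windows. The TCF motif, on the other strand as TCAAAG, begins 201 bases before the second start of Tnfrsf19, again 1 of the 12, against 13.8% of all windows. The second starts of Hopx and Tnfrsf19, with their windows, lie inside the annotated genes, which run over chr5:77086986-77115123 and chr14:60963834-61046855. These matches are letters in the sequence and do not show binding.

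Values are log2 signals, so a difference of 1 is a doubling, and tests were limma's, adjusted over all 18193 genes with a threshold of 0.05. Each SE, interval and p-value rests on 1 spread shared by the 4 groups, not on that of the groups compared. The groups differed in spread, as for Smoc2 (SD 0.88 in E2f TKO, 0.31 in QKO, 0.25 in Myc KO and 0.17 in control). In QKO crypts Tnfrsf19, Prom1, Lgr5, Rnf43 and Hopx rose relative to control, by 3.36-fold to 1.38-fold, and Bmi1 fell 1.29-fold. Of all genes, 14.3% passed the test as higher and 12.6% as lower in this comparison, against 5 and 1 of the 10 markers. All QKO arrays were above all control arrays for 7 markers and below them for 1, against 13.2% and 13% of all genes. Array medians were 6.23 to 6.26 in QKO and 6.22 to 6.26 in Myc KO, against 6.14 to 6.19 in E2f TKO and 6.15 to 6.16 in control. With each array's median subtracted, a setting added after the data were seen, the QKO arrays lay above control for 5 markers, with Lgr5 and Ascl2 overlapping, and below for 1, against 7.48% and 20.1% of all genes. Calls over all genes then split into 7.78% higher and 19.5% lower in QKO, and the same 6 markers passed in the same directions. In Myc KO crypts Tnfrsf19, Rnf43 and Hopx rose, 3 of 10 against 3.59% of all genes, and no marker fell, against 4.72%. Their arrays lay wholly above control for 4 markers, against 10.6% of all genes, and for 3, against 4.74%, with array medians subtracted, when Lrig1 overlapped. In that setting calls split into 1.57% higher and 9.05% lower in Myc KO. In E2f TKO crypts Prom1 alone rose, 1 of 10 against 1.68% of all genes, and none fell, against 1.22%. Olfm4, Smoc2, Ascl2 and Lrig1 did not pass in any of these comparisons, which share the 4 control arrays. The median difference of the 10 genes was 0.50 in QKO, 0.17 in Myc KO and 0.07 in E2f TKO, and that of all genes 0.03 in QKO, 0.02 in Myc KO and 0.00 in E2f TKO.

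**Figure D1:**
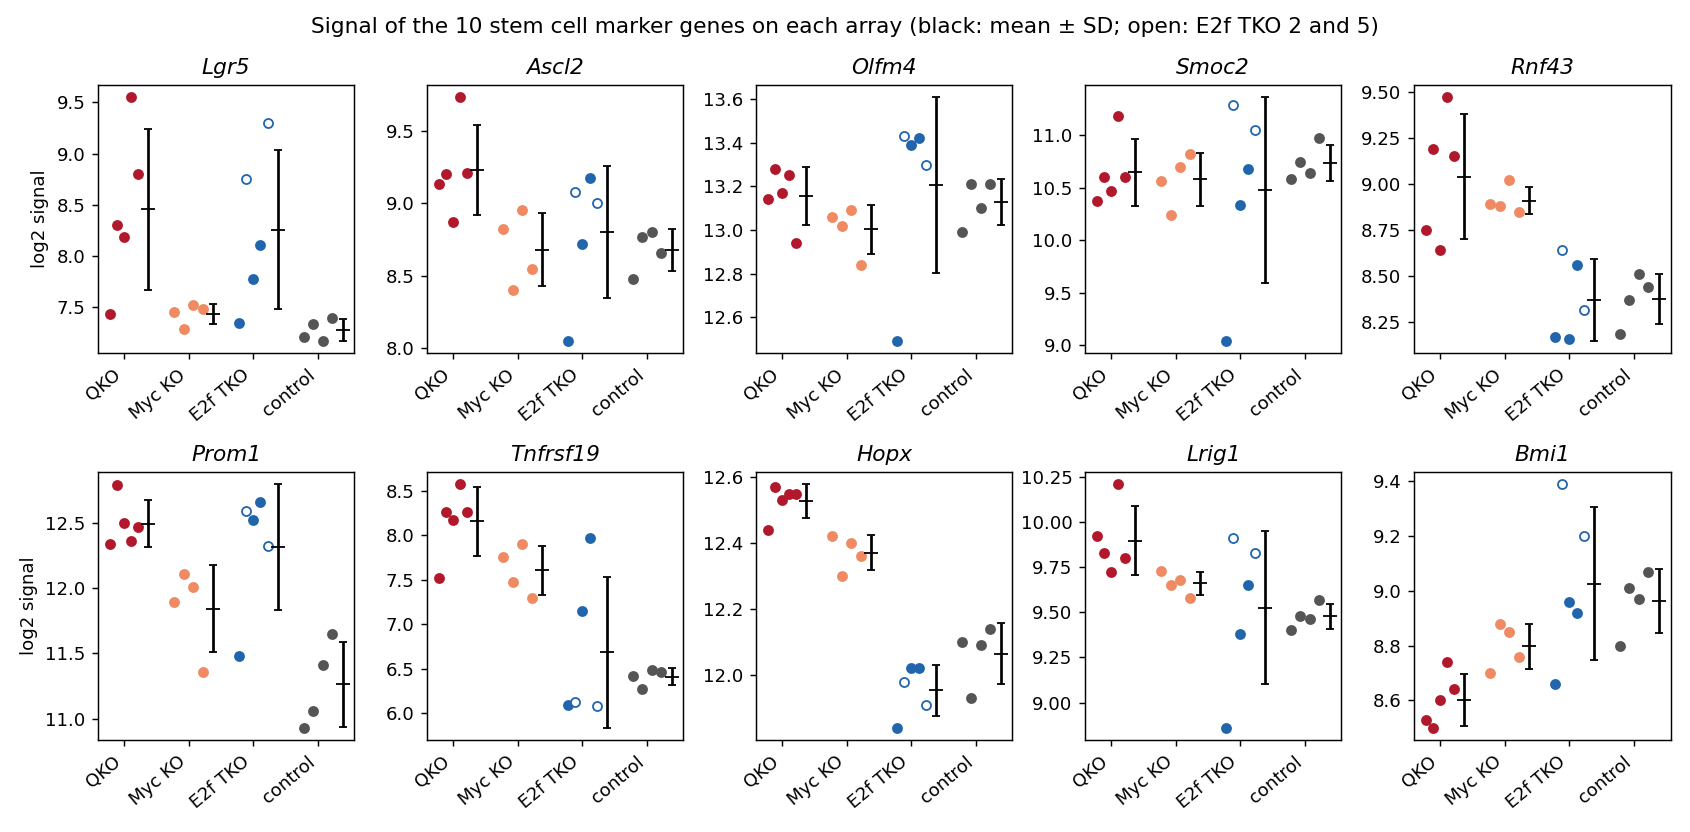
Log2 signal of the 10 marker genes (1 panel each) on every array, by genotype, with the group mean ± SD in black, and each panel with its own y axis that does not start at 0. The QKO arrays of Tnfrsf19 (7.52 to 8.58), Hopx (12.44 to 12.57) and Prom1 (12.34 to 12.79) lie above all 4 control arrays, and those of Bmi1 (8.50 to 8.74) below them. Open circles are the arrays titled E2f TKO 2 and 5.

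Some arrays stood apart, and this bears on every value of the E2f TKO group. The arrays titled E2f TKO 2 and 5 had Cyp1a1 signals of 5.05 and 4.91, against 12.66 to 14.09 on the other 16 arrays, and E2f3 signals of 9.35 and 9.10, above the 8.62 to 8.96 of control. The other 3 E2f TKO arrays read 8.08 to 8.39 for E2f3. QKO arrays read 8.09 to 8.19 for E2f3, all below control (-0.64, limma adjusted p = 0.0192), while the E2f TKO difference did not pass (-0.15, adjusted p = 0.816). Myc read 7.94 to 8.52 in QKO and 8.11 to 8.40 in Myc KO, against 9.69 to 10.30 in control. The signals of E2f1 and E2f2 in both genotypes labelled as lacking them overlapped control, and none passed limma's test (adjusted p = 0.245 to 0.707). E2f1 read 7.73 to 8.27 in QKO and 7.48 to 7.84 in E2f TKO, against 7.70 to 8.05 in control, and E2f2 read 9.18 to 9.41 in QKO and 8.61 to 9.16 in E2f TKO, against 8.91 to 9.28 in control. Where those probe sets lie relative to the deleted part is not known here. Xist, expressed in female cells, read 12.02 to 13.40 on QKO 4 and 5, E2f TKO 1 and 4 and control 3, and 6.44 to 6.96 on the other 13 arrays, all of Myc KO among them, so the arrays with high Xist were spread unevenly over the groups. With Xist as a covariate no call of a marker against control changed, Tnfrsf19 passed between E2f TKO and Myc KO (-1.08, adjusted p = 0.0335), and the QKO call of Pcgf1 was lost (adjusted p = 0.0613). The array titled E2f TKO 1 had the lowest signal of its group for 8 of the 10 markers. It also had the highest summed signal of enterocyte genes in its group, 17.49 against 16.28 to 16.89 on the other 4, and the highest of T cell genes, 13.16 against 9.68 to 11.90. Its part in the results was not tested beyond the fit without it. In that fit Ascl2 (0.55, limma adjusted p = 0.00984) and Lrig1 (0.42, adjusted p = 0.00529) passed in QKO against control. Prom1 (0.58, adjusted p = 0.029) then passed in Myc KO against control. For actin, whose 3′ over 5′ excess grows as RNA degrades, that excess was 0.19 to 0.31 in QKO, 0.18 to 0.22 in Myc KO, 0.26 to 0.78 in E2f TKO and 0.31 to 0.44 in control, and its part in the results was not tested. Lyz1, the lysozyme of the Paneth cells at the crypt base, averaged 14.59 over all arrays. The files hold no detection calls, so signals near the array median may be background, and the number of arrays limits the precision.

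Lgr5, the R-spondin receptor that defines crypt base columnar cells, was raised unevenly in QKO crypts. Its signals were 7.43, 8.30, 8.19, 9.55 and 8.80 on the 5 QKO arrays, against 7.21, 7.34, 7.17 and 7.40 on the control arrays. Every QKO array was above every control array, but QKO 1 exceeded the highest control by little and fell among the controls once array medians were subtracted (1.17, against 1.02 to 1.24). The difference was 1.17 ± 0.36 (SE; limma adjusted p = 0.0219, 2.26-fold). The call was lost without QKO 4 (0.90, adjusted p = 0.0516) and without control 3 (1.14, adjusted p = 0.0537). E2f TKO arrays spread as widely, at 7.35, 8.75, 7.78, 8.11 and 9.30, with the 2 low-Cyp1a1 arrays the highest. Their difference from control, 0.98 ± 0.36, did not pass (limma adjusted p = 0.197), and it was 0.47 (adjusted p = 0.474) without E2f TKO 2 and 5. The summed enterocyte signals of E2f TKO 1 to 5 were 17.49, 16.46, 16.89, 16.72 and 16.28, so Lgr5 was higher where this sum was lower. On QKO 1 to 5 the sums were 16.83, 16.93, 16.92, 16.07 and 16.80. QKO 4 thus had the highest Lgr5 signal and the lowest sum of its group, while the other QKO arrays did not keep that order. The part of enterocyte content in the Lgr5 values was not tested. Myc KO arrays read 7.45, 7.29, 7.52 and 7.48, overlapping control, with a difference of 0.16 ± 0.38 (adjusted p = 0.844). That SE comes from the spread shared by all groups. The SD of Lgr5 was 0.10 in Myc KO and 0.11 in control, against 0.77 in E2f TKO and 0.78 in QKO. A second Lgr5 probe set was below the median of every array, between 4.68 and 5.29, and differed by -0.05 in QKO. The mean of both probe sets differed by 0.56.

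Rnf43, a membrane ubiquitin ligase that removes Wnt receptors and is held back by R-spondin bound to Lgr receptors, was higher in both genotypes that lack Myc. It read 8.75, 9.19, 8.64, 9.47 and 9.15 in QKO crypts and 8.89, 8.88, 9.02 and 8.85 in Myc KO crypts, against 8.19, 8.37, 8.51 and 8.44 in control. All 9 arrays without Myc were above all 4 control arrays. The difference was 0.66 ± 0.14 in QKO (limma adjusted p = 0.00262) and 0.53 ± 0.15 in Myc KO (adjusted p = 0.0371). The Myc KO call was lost when any 1 of the 8 Myc KO or control arrays was left out, with adjusted p = 0.0518 to 0.0921, and when array medians were subtracted (0.46, adjusted p = 0.0716). In E2f TKO crypts Rnf43 read 8.17, 8.64, 8.16, 8.56 and 8.32, within and around the control values, with a difference of 0.00 ± 0.14 (95% interval -0.31 to 0.30).

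Ascl2, a Wnt-driven transcription factor needed by crypt base columnar cells, read 9.13, 9.20, 8.87, 9.73 and 9.21 in QKO crypts, against 8.48, 8.77, 8.80 and 8.66 in control. The groups did not overlap on the deposited scale, but QKO 3 fell among the controls once array medians were subtracted. The difference of 0.55 ± 0.20 lay just outside the threshold (limma adjusted p = 0.0504). It passed under 10 of 30 alternative settings, with adjusted p = 0.00984 to 0.0492, and not with array medians subtracted (0.45, adjusted p = 0.109). Myc KO arrays read 8.82, 8.40, 8.95 and 8.55, on both sides of control, with a difference of 0.00 ± 0.21. E2f TKO arrays read 8.05, 9.08, 8.72, 9.17 and 9.00, 1 of them below every control array and 3 above, and the difference was 0.13 ± 0.20 (adjusted p = 0.868).

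Olfm4 encodes a secreted glycoprotein abundant in crypt base columnar cells, and Smoc2 a secreted matrix protein enriched in them. Olfm4 read 13.14, 13.28, 13.17, 13.25 and 12.94 in QKO, 13.06, 13.02, 13.09 and 12.84 in Myc KO and 12.49, 13.43, 13.39, 13.42 and 13.30 in E2f TKO crypts, against 12.99, 13.21, 13.10 and 13.21 in control. All 4 groups overlapped, E2f TKO only through E2f TKO 1, which lay well away from the rest. The other E2f TKO arrays, at 13.30 to 13.43, were above every array of the other groups. The E2f TKO difference from control was 0.08 ± 0.15 (limma adjusted p = 0.901). It ran from 0.02 to 0.25 with 1 array left out, with adjusted p at least 0.0905. Without E2f TKO 1, Olfm4 was higher in E2f TKO than in Myc KO (0.38, adjusted p = 0.00303). The QKO difference was 0.03 with a 95% interval of -0.29 to 0.34 (limma adjusted p = 0.92).
Smoc2 read 10.37, 10.60, 10.47, 11.18 and 10.60 in QKO, 10.56, 10.24, 10.70 and 10.82 in Myc KO and 9.04, 11.29, 10.33, 10.68 and 11.05 in E2f TKO crypts, against 10.58, 10.74, 10.64 and 10.97 in control. The groups again overlapped, and the E2f TKO arrays ran from the lowest to the highest signal of all 18. The E2f TKO difference was -0.26 ± 0.32 (limma adjusted p = 0.81), and -0.72 (adjusted p = 0.161) without E2f TKO 2 and 5. The QKO difference was -0.09 with an interval of -0.75 to 0.58 (limma adjusted p = 0.871).

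Prom1, the surface protein CD133 of crypt stem and progenitor cells, was the 1 marker that rose in E2f TKO crypts. It read 12.34, 12.79, 12.50, 12.36 and 12.47 in QKO and 11.48, 12.59, 12.52, 12.66 and 12.32 in E2f TKO crypts, against 10.93, 11.06, 11.41 and 11.65 in control. All QKO arrays and 4 of 5 E2f TKO arrays were above every control array, and E2f TKO 1 lay among them. The difference was 1.23 ± 0.21 in QKO (limma adjusted p = 0.000502) and 1.05 ± 0.21 in E2f TKO (adjusted p = 0.0102). Without E2f TKO 2 and 5 the E2f TKO difference was 0.96 ± 0.25 (adjusted p = 0.0295), and in a fit of E2f TKO and control alone the call was lost (adjusted p = 0.0792). Myc KO arrays read 11.89, 12.11, 12.01 and 11.36, with a difference of 0.58 ± 0.23 that did not pass (adjusted p = 0.124).

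Tnfrsf19, a receptor of the tumour necrosis factor family also called Troy that Wnt signalling induces in crypt stem cells, had the largest difference of the 10. It read 7.52, 8.26, 8.17, 8.58 and 8.26 in QKO and 7.76, 7.48, 7.90 and 7.29 in Myc KO crypts, against 6.42, 6.27, 6.49 and 6.46 in control. The control signals were close to the array medians, and all 9 arrays without Myc were well above them. The difference was 1.75 ± 0.31 in QKO (limma adjusted p = 0.000617) and 1.20 ± 0.33 in Myc KO (adjusted p = 0.033). The Myc KO call was lost without Myc KO 1, 2 or 3 or any 1 control array (adjusted p = 0.0584 to 0.0845). E2f TKO arrays fell into a low and a high set, with 6.09, 6.13 and 6.08 on E2f TKO 1, 2 and 5, and 7.15 and 7.97 on E2f TKO 3 and 4. Their difference was 0.28 ± 0.31 (adjusted p = 0.791), and it was 0.66 (adjusted p = 0.251) without E2f TKO 2 and 5.

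Hopx, a homeodomain protein without DNA binding of its own, showed the tightest groups. Its signals were 12.44, 12.57, 12.53, 12.55 and 12.55 in QKO and 12.42, 12.30, 12.40 and 12.36 in Myc KO crypts, against 12.10, 11.93, 12.09 and 12.14 in control. E2f TKO arrays read 11.84, 11.98, 12.02, 12.02 and 11.91, overlapping control. On the probe set used, all arrays without Myc were above all arrays with it. The difference was 0.46 ± 0.06 in QKO (limma adjusted p = 3.91e-05) and 0.30 ± 0.06 in Myc KO (adjusted p = 0.00793), against -0.11 ± 0.06 in E2f TKO (adjusted p = 0.425). Both calls were kept under all 30 alternative settings, which followed the probe set used or the mean of both. The second Hopx probe set read 11.19 to 11.37 in QKO and 11.22 to 11.31 in Myc KO, both overlapping the 10.96 to 11.27 of control.

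Lrig1, a transmembrane protein that restrains ErbB receptors, read 9.92, 9.83, 9.72, 10.21 and 9.80 in QKO and 9.73, 9.65, 9.68 and 9.58 in Myc KO crypts, against 9.40, 9.48, 9.46 and 9.57 in control. On the probe set used, the arrays of both genotypes were above control without overlap, though Myc KO 4 barely exceeded the highest control array. Myc KO 4 fell among the controls once array medians were subtracted. Neither difference passed. It was 0.42 ± 0.16 in QKO (limma adjusted p = 0.0552), past the threshold under 8 of 30 alternative settings (0.00529 to 0.0487) but not with array medians subtracted (0.33, adjusted p = 0.139), and 0.18 ± 0.16 in Myc KO (adjusted p = 0.536). E2f TKO arrays read 8.86, 9.91, 9.38, 9.65 and 9.83, with a difference of 0.05 ± 0.16. Without E2f TKO 2 and 5 that difference was -0.18 (limma adjusted p = 0.551). Of the other Lrig1 probe sets, the brighter read 9.19 to 9.65 in QKO and 9.13 to 9.20 in Myc KO. Both overlapped the 9.04 to 9.43 of control, and the Myc KO mean (9.17) was below that of control (9.29). The dimmer overlapped control in both genotypes.

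Bmi1, a subunit of Polycomb repressive complex 1, was the marker that fell. It read 8.53, 8.50, 8.60, 8.74 and 8.64 in QKO crypts, against 8.80, 9.01, 8.97 and 9.07 in control, and every QKO array was below every control array. The difference was -0.36 ± 0.11 (limma adjusted p = 0.0224). The call was lost without QKO 2 (adjusted p = 0.0528), control 2 (adjusted p = 0.0569) or control 4 (adjusted p = 0.0714). Myc KO arrays read 8.70, 8.88, 8.85 and 8.76 and E2f TKO arrays 8.66, 9.39, 8.96, 8.92 and 9.20, both overlapping control, with differences of -0.17 (adjusted p = 0.419) and 0.06 (adjusted p = 0.886).

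**Figure D2:**
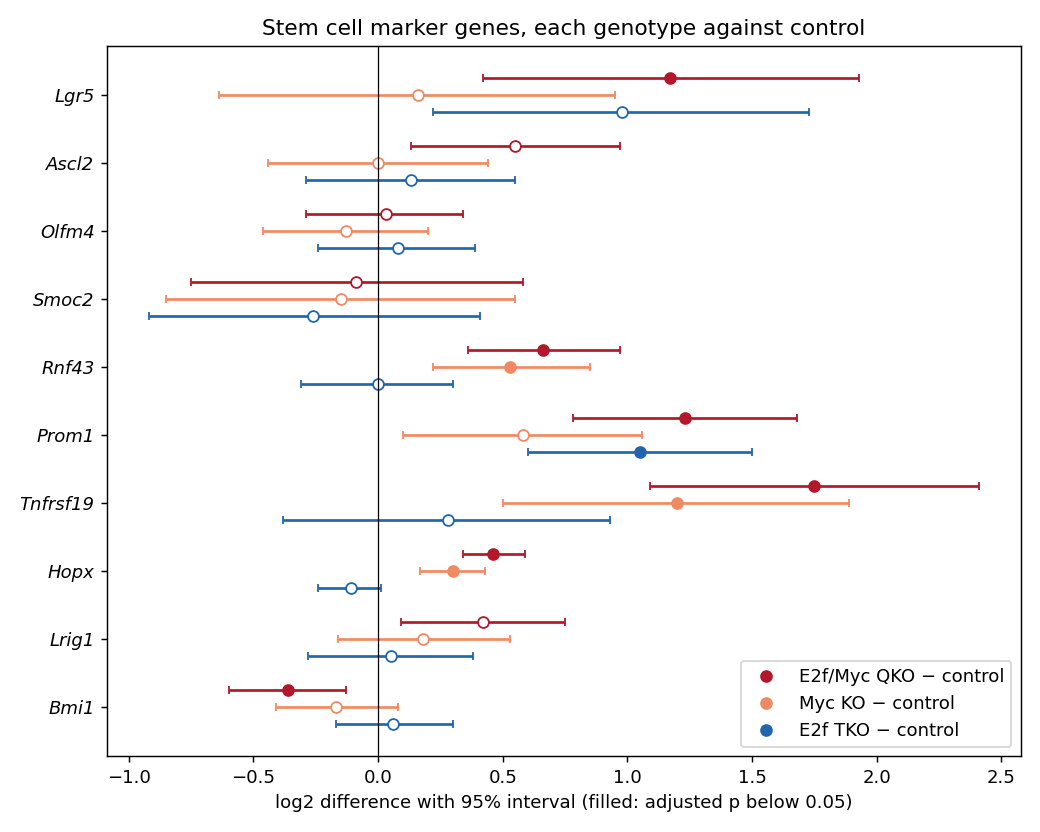
Log2 difference from control (x axis) with its 95% interval for each marker gene in QKO, Myc KO and E2f TKO crypts, filled where the limma adjusted p is below 0.05. Tnfrsf19 stands farthest to the right in QKO (1.75), and Bmi1 is the only filled point left of 0 (-0.36).

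Set directly against each other, the genotypes differed at the markers that rose without Myc. QKO crypts had more Hopx than E2f TKO crypts (0.57 ± 0.06, limma adjusted p = 1.68e-05), more Tnfrsf19 (1.47 ± 0.29, adjusted p = 0.00314) and more Rnf43 (0.67 ± 0.14, adjusted p = 0.0034), and less Bmi1 (-0.43 ± 0.10, adjusted p = 0.0108). That is 3 higher and 1 lower of 10, against 9.09% and 7.95% of all genes. Hopx was the 1 marker whose QKO arrays all lay above the E2f TKO arrays, against 5.58% of all genes, and against 2.09% with array medians subtracted, when calls over all genes split into 3.88% higher and 13.3% lower. Fitted with these 2 groups only, Bmi1 did not pass (adjusted p = 0.0557). Without E2f TKO 2 and 5 its difference was -0.25 (adjusted p = 0.0745), and Lrig1 passed in its place (0.60, adjusted p = 0.0121). E2f TKO crypts had less Hopx than Myc KO crypts (-0.41 ± 0.06, limma adjusted p = 0.000259) and less Rnf43 (-0.54 ± 0.14, adjusted p = 0.0192), 2 of 10 against 6.16% of all genes, and no marker was higher, against 7.87%. For both genes every E2f TKO array lay below every Myc KO array, as for 6.63% of all genes, and for 3.13% with array medians subtracted, when both genes still did. Calls over all genes then split into 11.2% higher and 3.04% lower. Tnfrsf19 had the largest difference of the 10 (-0.92 ± 0.31) and did not pass (adjusted p = 0.0584), but did under 4 of 30 alternative settings, with adjusted p = 0.00308 to 0.0461. Its other probe sets passed by themselves (-0.51, adjusted p = 0.00981, and -0.92, adjusted p = 0.00183). The first of them read 5.36 to 6.23 in these groups, below the median of each array. The second read 5.50 to 6.27 in E2f TKO, below the median except on E2f TKO 4. The Rnf43 call was lost without Myc KO 3 (adjusted p = 0.0545). Without E2f TKO 1, 6 markers passed, with Olfm4 (0.38), Prom1 (0.68), Lgr5 (1.05) and Bmi1 (0.32) higher in E2f TKO. Over the fits with 1 array left out, 1532 to 3970 of 18193 genes passed between E2f TKO and Myc KO. The 6.16% and 7.87% above come from the fit of all arrays and are not the background of those 6 markers. These 2 comparisons share the E2f TKO arrays.

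Between QKO and Myc KO crypts no marker passed limma's test, against 4.6% of all genes higher and 3.09% lower. The smallest adjusted p was 0.0754, for Prom1 (0.65 ± 0.21), and Lgr5 followed (1.02 ± 0.36, adjusted p = 0.0978). All QKO arrays were above all Myc KO arrays for Prom1 and Hopx, 2 of 10 against 7.22% of all genes, and for Prom1 alone, against 6.11%, with array medians subtracted. Without E2f TKO 1, which enters this comparison only through the shared spread, Prom1 (adjusted p = 0.0123) and Ascl2 (adjusted p = 0.0245) passed, and without QKO 1 Lgr5 did (1.28, adjusted p = 0.0288). The Tnfrsf19 difference of 0.55 had a 95% interval of -0.11 to 1.21. The interaction, which asks whether the QKO difference departs from the sum of the E2f TKO and Myc KO differences on the log2 scale, passed for none of the 10 and for 0.055% of all genes. Hopx had the smallest p of the 10 there, with an estimate of 0.27, an interval of 0.10 to 0.45 and a limma adjusted p of 0.629. Intervals for Lgr5 (-1.03 to 1.11) and Tnfrsf19 (-0.65 to 1.21) were wide, so sizeable departures in either direction were not detectable with these arrays.

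Of the 10 markers, 7 had more than 1 probe set, 20 probe sets in all, and their probe sets did not always tell the same story. When every probe set was tested by itself, 8 of the 20 were higher and 2 lower in QKO than in control, against 13.9% and 13.1% of all 34945 probe sets with 1 symbol. All 3 of Tnfrsf19 were among the 8, with the other differences 0.72 and 1.39 (limma adjusted p = 0.000406 and 2.51e-05), and both of Bmi1 were lower, the second by -0.51 (adjusted p = 0.00877). The other Tnfrsf19 probe sets each averaged 5.71 in control, below the array medians. The Ascl2 probe set used above passed in that fit (adjusted p = 0.0487), and its other probe sets did not (0.67, adjusted p = 0.0539; 0.19, adjusted p = 0.628). The second Hopx probe set differed by 0.18 (adjusted p = 0.0686), and the other Lrig1 probe sets by 0.14 and 0.05. Across the 18 arrays the pairs of probe sets correlated at 0.89 to 0.94 for Smoc2, Tnfrsf19, Hopx and Bmi1, at 0.79 to 0.96 for Ascl2, at 0.17 to 0.78 for Lrig1 and at 0.30 for Lgr5.

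**Figure D3:**
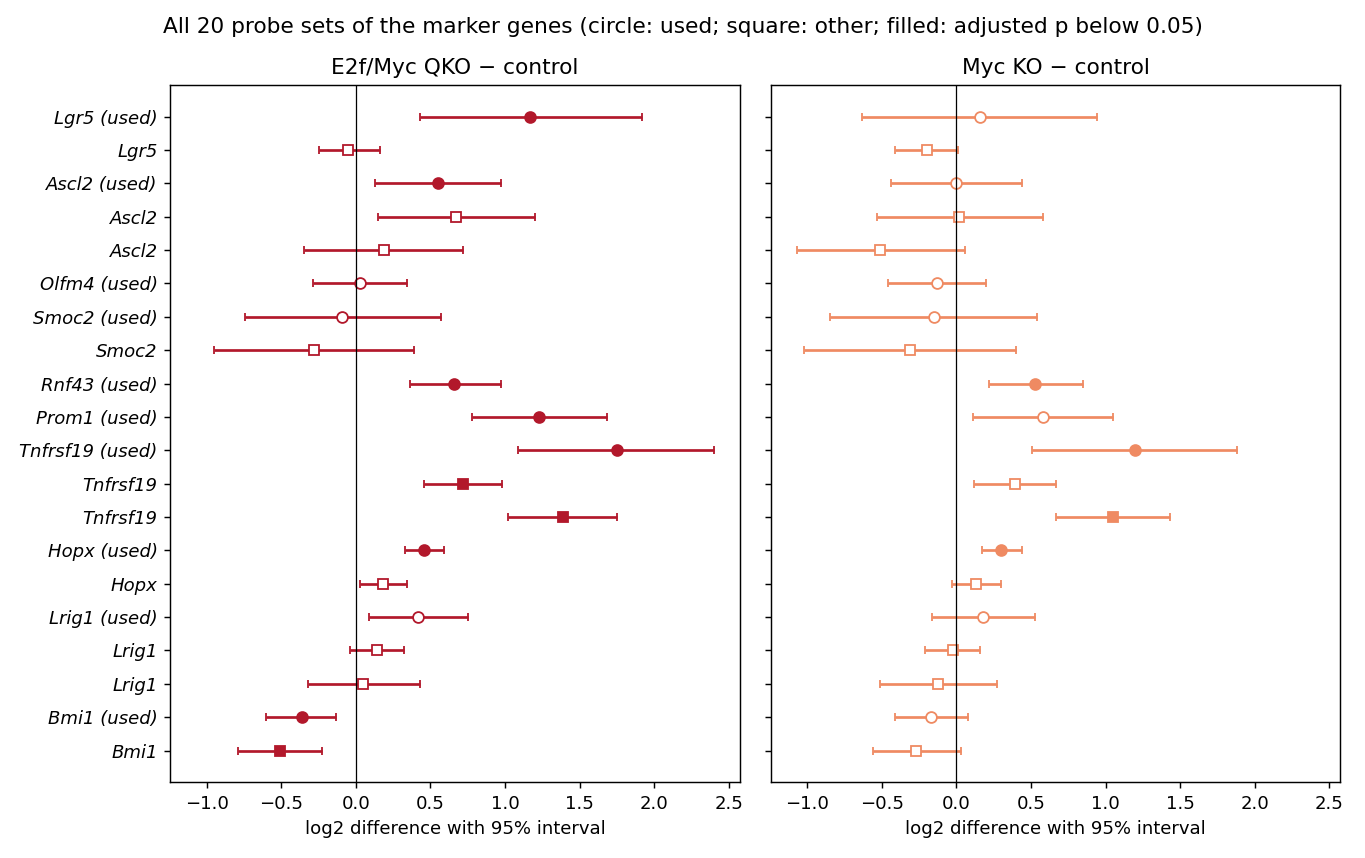
Log2 difference from control with its 95% interval for all 20 probe sets of the markers, QKO on the left and Myc KO on the right, filled where the limma adjusted p over all probe sets is below 0.05. The 3 Tnfrsf19 probe sets all lie right of 0 in QKO, while the second Lgr5 probe set lies at -0.05.

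The markers also varied together once group means were taken out, with the groups pooled. Over the 45 pairs of genes, Pearson's r across the 18 arrays had a median of 0.48 (-0.68 to 0.87), and after each group's mean was taken out the median was 0.54 (-0.12 to 0.93). The strongest pair within groups was Smoc2 and Lrig1 (0.93), followed by Ascl2 and Lrig1 (0.87). Hopx and Bmi1 had -0.68 over all arrays and 0.18 within groups. Hopx and Tnfrsf19 had 0.86 and 0.62. Within QKO, array 4 was the highest for 7 of 10 markers and array 1 the lowest for 5. All pairs share the same 18 arrays and their array-wide differences, so these values only describe the set. The E2f TKO arrays spread most for several markers, such as Lrig1 (SD 0.42, against 0.19 in QKO, 0.06 in Myc KO and 0.07 in control). No r was taken inside any group alone or over all genes. In crypt RNA, fewer cells of a type and less RNA per cell cannot be told apart.

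**Figure D4:**
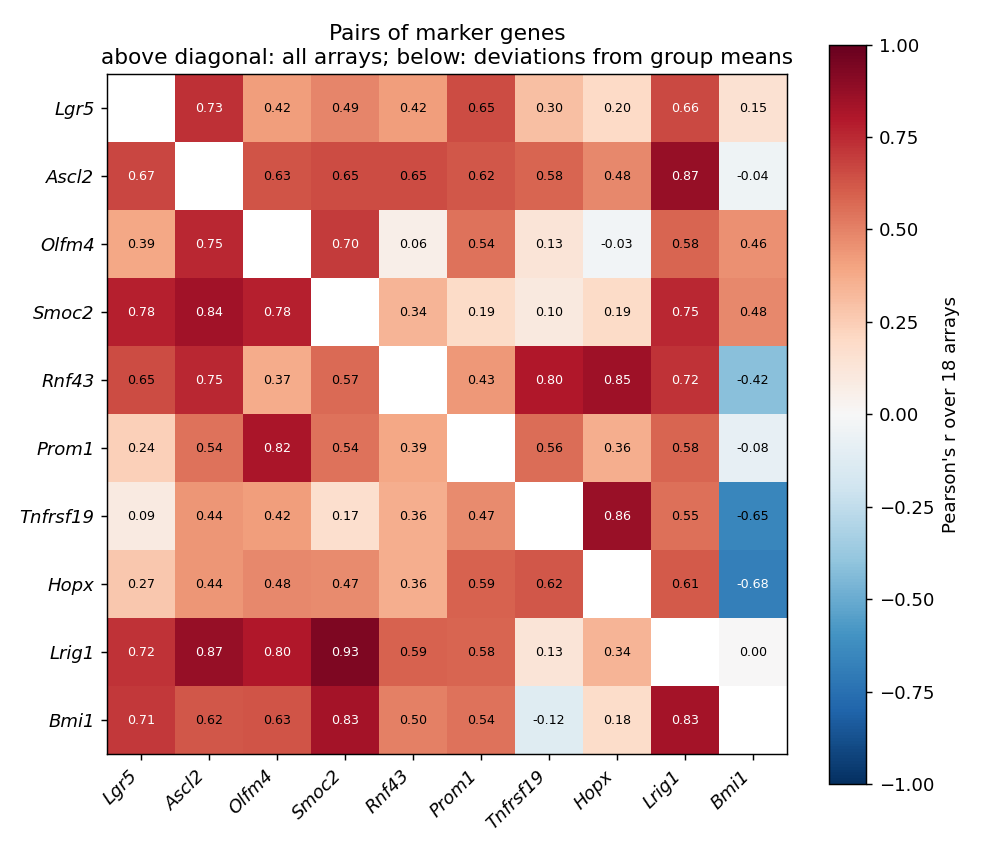
Pearson's r between the log2 signals of each pair of marker genes over 18 arrays, above the diagonal for all arrays and below it for deviations from the group means. Bmi1 is negative with Hopx (-0.68) and Tnfrsf19 (-0.65) above the diagonal, and below it 1 of 45 pairs is under 0.

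Other genes known from crypt base columnar cells were read from a list of 25, of which 23 were measured. The list was chosen with earlier results of these data known, so its counts beside those of all genes only describe it. In QKO crypts 14 rose, against 14.3% of all genes, and 1 fell, against 12.6%, with a median difference of 0.55. Phlda1 rose most firmly (1.63 ± 0.19, limma adjusted p = 1.48e-05), followed by the ephrin receptor Ephb3 (1.24 ± 0.18, adjusted p = 9.79e-05), the receptor phosphatase Ptpro (1.14 ± 0.19, adjusted p = 0.000432) and the growth factor Pdgfa (0.66 ± 0.13, adjusted p = 0.00112). The 1 that fell was Nr5a2, a nuclear receptor (-0.54, adjusted p = 0.0106), which was singled out after its value was seen. In Myc KO crypts 3 of 23 rose, against 3.59% of all genes, namely Phlda1 (1.07), Ephb3 (0.77) and Pdgfa (0.49), with a list median of 0.18. In E2f TKO crypts 2 of 23 rose, against 1.68% of all genes, Phlda1 (0.96) and Pdgfa (0.50), with a list median of 0.17. The QKO count of genes past the test was 12 to 16 when 1 array was left out. The Myc KO count was then 2 to 5 and that of E2f TKO 1 to 4, with 4 without E2f TKO 1 and 4 also without E2f TKO 2 and 5. With 1 array left out, 3636 to 5713 (QKO), 640 to 2227 (Myc KO) and 277 to 830 (E2f TKO) of 18193 genes passed. Without E2f TKO 2 and 5, 7.27% of all genes passed in E2f TKO. Pdgfa's call in Myc KO was lost without control 1, 2 or 3 or Myc KO 2, 3 or 4 (adjusted p = 0.0581 to 0.0874), with its probe sets averaged (0.29, adjusted p = 0.144) and with array medians subtracted (0.42, adjusted p = 0.0546). In E2f TKO it was lost without any of control 1, 2 and 3, E2f TKO 3, 4 and 5, Myc KO 2, 3 and 4 and QKO 2 (adjusted p = 0.0502 to 0.126).

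**Figure D5:**
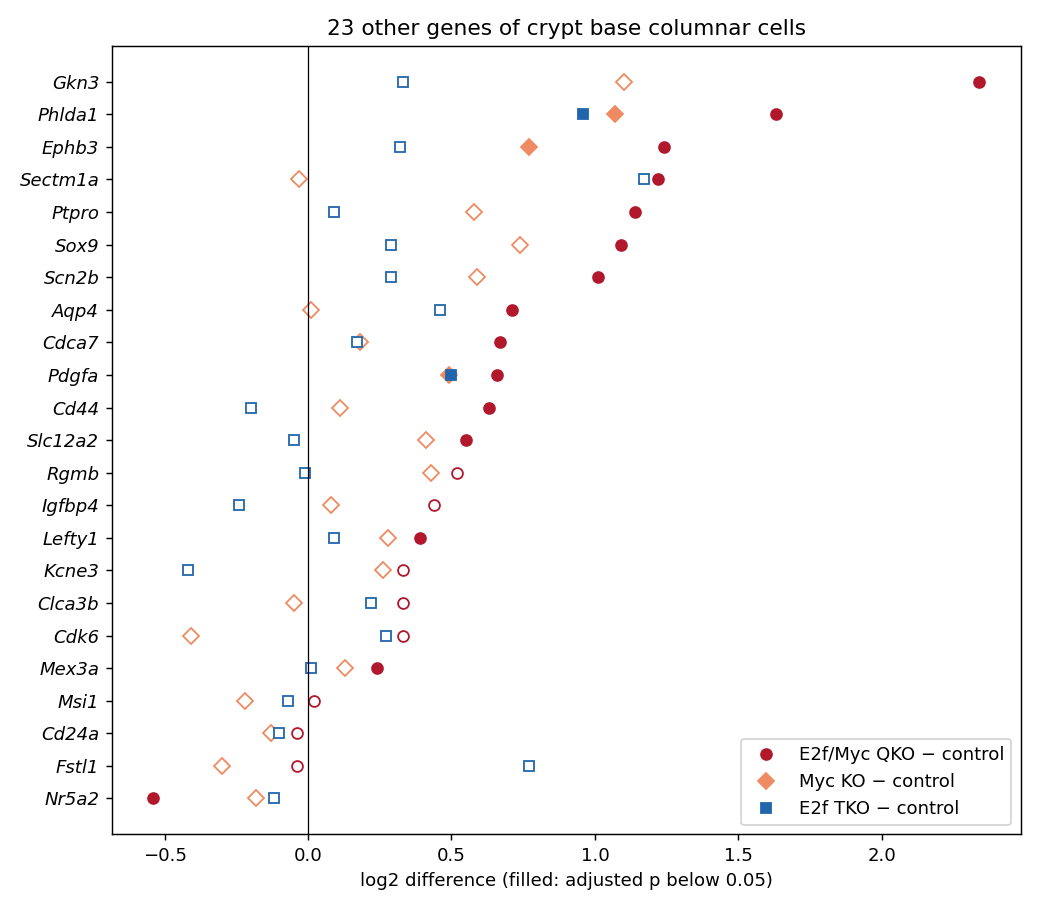
Log2 difference from control of the 23 other crypt base columnar cell genes measured, in QKO (circles), Myc KO (diamonds) and E2f TKO (squares), filled where the limma adjusted p is below 0.05. QKO has 15 filled points, 14 of them right of 0, Myc KO has 3 and E2f TKO has 2.

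Of 25 measured genes of the R-spondin and Wnt pathway, within which Lgr5 and Rnf43 act, 5 were higher and 2 lower in QKO than in control, with a median of 0.09. Of all genes 14.3% were higher and 12.6% lower, so these counts lie near the background. The higher ones with the smallest p were the Wnt feedback gene Nkd1 (1.01 ± 0.18, limma adjusted p = 0.000502) and the TCF factors Lef1 (0.45, adjusted p = 0.00199) and Tcf7l1 (0.48, adjusted p = 0.00344), and the Wnt receptor Fzd5 was lower (-0.56, adjusted p = 0.00553). Nkd1 and Lef1 averaged 5.37 and 5.70 in control, below the array medians, and as means of their probe sets neither passed (adjusted p = 0.0599 and 0.113), with 3 genes of the list past the test in place of 7. In Myc KO crypts only Nkd1 passed (0.64, adjusted p = 0.0395), a call that was lost without any 1 control or Myc KO array (adjusted p = 0.0549 to 0.124) and with array medians subtracted (adjusted p = 0.0608), and in E2f TKO crypts none of the 25 did.

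Of 13 ErbB pathway genes, to which Lrig1 is tied as a restraint, 3 were higher and 1 lower in QKO crypts, against 14.3% and 12.6% of all genes. The list median was 0.03, the same as that of all genes, and these counts lie near the background. The higher ones were the ligands Btc (1.10 ± 0.14, limma adjusted p = 4.05e-05), Ereg (1.71, adjusted p = 0.00484) and Hbegf (0.48, adjusted p = 0.00334), and the lower one Lrig3, a relative of Lrig1 (-0.32, adjusted p = 0.0143), a call lost after quantile normalization (adjusted p = 0.0755) and when its probe sets were averaged (adjusted p = 0.246). Ereg averaged 4.44 in control, below the array medians. Btc was also higher in Myc KO crypts (0.64, adjusted p = 0.0152), though not without control 4 (adjusted p = 0.0514) or Myc KO 2 (adjusted p = 0.0592), nor with its probe sets averaged (0.42, adjusted p = 0.143), and no gene of this list passed in E2f TKO. Without E2f TKO 2 and 5, 4 of the 13 passed there, against 7.27% of all genes.
Of 16 genes of Polycomb repressive complex 1, the complex of Bmi1, 4 were higher and 1 lower in QKO, against 14.3% and 12.6% of all genes, with a median of 0.00. Phc3 (0.47, limma adjusted p = 0.00393), Pcgf5 (0.28, adjusted p = 0.00647) and Phc1 (0.28, adjusted p = 0.0139) were higher, and Pcgf1, a relative of Bmi1, was lower (-0.34, adjusted p = 0.0412). The Phc1 call was lost without control 4 (adjusted p = 0.0555), and that of Pcgf1 without any 1 control array or QKO 2, 3, 4 or 5 (adjusted p = 0.0505 to 0.111). The QKO count of this list was 2 without control 4 and 3 without control 1, control 3, QKO 2 or QKO 4. It was 2 with array medians subtracted, when Pcgf5 (adjusted p = 0.0559) and Phc1 (adjusted p = 0.117) did not pass. In Myc KO crypts Pcgf6 was lower (-0.35, adjusted p = 0.0239), which did not hold without control 2 or 4 or Myc KO 1, 2 or 4 (adjusted p = 0.0526 to 0.0904), and in E2f TKO none of the 16 passed.

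Markers of some other cell types moved with the QKO group as well, on lists also chosen with earlier results of these data known. Of 10 enteroendocrine genes 8 were higher in QKO than in control, and of 6 tuft cell genes 5 were, against 14.3% of all genes, and these counts were 8 to 9 and 5 when 1 array was left out. Their summed log2 signals were 14.17 to 14.66 in QKO, 13.71 to 14.07 in Myc KO, 14.03 to 14.12 in E2f TKO and 13.22 to 13.64 in control for the enteroendocrine list. For the tuft list they were 9.74 to 10.22 in QKO, 9.56 to 9.62 in Myc KO, 9.27 to 9.73 in E2f TKO and 9.22 to 9.38 in control. None of 11 enterocyte, 7 goblet, 6 Paneth, 6 myeloid or 5 B and plasma cell genes passed in QKO, while 1 of 10 stromal, 2 of 6 smooth muscle, 1 of 6 endothelial and 1 of 9 T cell genes were higher, against 14.3% of all genes. On every array 5 of 6 endothelial markers (Pecam1 and Cdh5 among them), 4 of 6 smooth muscle markers (Myh11 among them), 3 of 10 stromal, 2 of 9 T cell, 2 of 6 myeloid and 2 of 6 tuft markers lay below the lowest array median. The part of enteroendocrine and tuft cells in the marker differences was not tested.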

How the data were processed

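Expression was measured on 18 arrays of crypt RNA, grouped by the titles. The authors deposited log2 signals, a scale inferred from the values (2.29 to 14.81), and how they were normalized and summarised is not given in the sources used here. No further normalization was applied, since array medians differed by 0.126. Of 45101 probe sets, 34945 carry 1 gene symbol in the platform annotation, and each of the 18193 genes took the values of whichever of its probe sets averaged highest over all arrays. All 18 arrays entered 1 fit of group means (limma 3.58.1 under R 4.3.3, with lmFit, contrasts.fit and eBayes), with two-sided p-values adjusted by Benjamini-Hochberg over all genes and a threshold of 0.05. The fit was tested on simulated data. Tables were read with data.table version 1.17.8, and figures and sequences were handled in Python 3.11.15 with matplotlib 3.10.9. Summed signals of a list are log2 of the summed linear signals. The markers and lists were chosen with earlier results of these data known. The genes named are the 10 markers and, of each pathway list, up to 4 with the smallest p past the test in each comparison with control. Alternatives were the choice of probe set, quantile normalization, a filter on dim genes, trended and robust eBayes, array weights, Xist as a covariate, fits of only the groups compared, a block for the replicate number, the fit without E2f TKO 2 and 5, each array left out and, added after seeing the data, array medians subtracted. Scanner files were not analysed here.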

Additional observations from a re-analysis of the deposited data

Results flagged for a closer look

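The groups of each marker were checked for an array far from the rest, taking the gap to its nearest neighbour as a share of the group's range, which chance alone makes large in about 1 of 20 groups. Of 40 groups 3 held such an array. Olfm4 on E2f TKO 1 read 12.49 with the nearest E2f TKO array at 13.30, a share of 0.86. Prom1 on the same array read 11.48 with the nearest at 12.32, a share of 0.712. Smoc2 on QKO 4 read 11.18 with the nearest QKO array at 10.60, a share of 0.713. The critical share for 5 arrays is 0.71. E2f TKO 1 is also the array with the highest enterocyte and T cell sums of its group.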

How the results depend on the processing

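With the replicate number as a block, the genes past the test numbered 5335 (QKO), 1821 (Myc KO) and 653 (E2f TKO) against control, 3489 for QKO against E2f TKO, 1545 for QKO against Myc KO, 2610 for E2f TKO against Myc KO and 11 for the interaction, and no call of a marker changed, while that of Pdgfa in E2f TKO was lost (adjusted p = 0.07). Of 25 pairs of same-numbered arrays 13 correlated above 0.1 (-0.16 to 0.35). Pairs with different numbers were not examined, so these values cannot decide whether the numbers pair samples. The main fit took the samples as unpaired. Testing every probe set gave 3014 (Myc KO against control), 4742 (QKO against E2f TKO), 4250 (E2f TKO against Myc KO) and 22 (interaction) calls. Genes above the median level gave 6 for the interaction. Fits of 2 groups alone gave 253 genes for E2f TKO and 2681 for Myc KO against control, 1549 for QKO against E2f TKO and 1237 for E2f TKO against Myc KO, with 0 markers in E2f TKO against control and 1 in QKO against Myc KO. Array weights gave 1356 and 3427 genes for E2f TKO and Myc KO against control, 2265 for QKO against Myc KO and 3968 for E2f TKO against Myc KO, with 2 and 4 markers in the last pair of comparisons. Quantile normalization gave 1 marker in QKO against Myc KO. Without E2f TKO 2 and 5, 1322 genes passed in E2f TKO against control, and 1 marker in QKO against Myc KO. With 1 array left out, the counts of genes were 3636 to 5713 (QKO), 640 to 2227 (Myc KO) and 277 to 830 (E2f TKO) against control, 2185 to 4288 for QKO against E2f TKO, 918 to 2008 for QKO against Myc KO, 1532 to 3970 for E2f TKO against Myc KO and 6 to 14 for the interaction. Those of markers were 5 to 8 (QKO), 1 to 4 (Myc KO) and 1 to 1 (E2f TKO) against control, 4 to 5 for QKO against E2f TKO, 0 to 2 for QKO against Myc KO, 1 to 6 for E2f TKO against Myc KO and 0 to 0 for the interaction. The cause of these shifts was not tested, beyond the smaller number of genes or samples by construction. The calls of Hopx in QKO and Myc KO, and of Prom1, Rnf43 and Tnfrsf19 in QKO, held under all 30 alternatives, and no called difference changed direction. With array medians subtracted the Rnf43 call in Myc KO was lost, and the median difference of all genes in QKO was -0.06, against 0.03 as deposited.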
